A study of Homo sapiens with 6 samples.

Results

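The genes of glycolysis and of the hypoxia response were examined in A2058 cells, a human melanoma line, after treatment with an siRNA against the cancer-testis antigen CT16. The 35 genes were chosen by name for their role, with earlier results of these data known. Of these, 33 had a probe on the array and 28 were above background, among 8909 named genes above background of 16225 in all. The 28 were 16 glycolytic enzymes, the glucose transporters SLC2A1 and SLC2A3, the flux regulator PFKFB4, the transcription factor subunit HIF1A and 8 targets of that factor. CT16-siRNA-treated cells received CT16 siRNA1, and control cells a non-targeting siRNA, each for 48 h with the same lipid reagent. Each group had 3 arrays from 3 separate cultures. All cells were grown in DMEM with serum, and no label names a change in oxygen. A single siRNA in a single cell line was thus tested.

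Glycolysis splits glucose into pyruvate, which lactate dehydrogenase can reduce to lactate so that the pathway runs on without mitochondrial respiration. Hypoxia-inducible factor (HIF) is a dimer whose alpha subunit is hydroxylated by EGLN enzymes when oxygen is present and then destroyed through the VHL ubiquitin ligase. When oxygen is scarce, the alpha subunit persists and binds short DNA elements with the core ACGTG or GCGTG near its targets. These include most glycolytic enzymes and a second group of genes for mitophagy, collagen hydroxylation and oxygen sensing. HIF activity rests largely on the amount of alpha protein, which an mRNA array does not measure.

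The promoters of 4 genes are printed because these genes are described in detail below. P4HA2 and ALDOC had the most negative differences of the 28 genes, while BNIP3 and ANKRD37 were among the HIF targets with positive ones. The sequences are from RefSeq (GRCh38.p14), run 5′ to 3′ on the strand of the gene and hold 300 bases around the start. Capitals mark ACGTG and GCGTG on either strand, read as CACGT and CACGC on the opposite one. CACGTG holds ACGTG on both strands and counts for each.
ALDOC chr17:28576846-28577145 (minus strand): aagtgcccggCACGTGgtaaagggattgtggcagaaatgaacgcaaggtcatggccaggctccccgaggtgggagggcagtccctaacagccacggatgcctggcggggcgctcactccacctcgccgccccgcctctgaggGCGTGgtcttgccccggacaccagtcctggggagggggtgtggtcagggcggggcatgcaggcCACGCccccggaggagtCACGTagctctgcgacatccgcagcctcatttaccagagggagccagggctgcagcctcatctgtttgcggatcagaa
P4HA2 chr5:132227042-132227341 (minus strand): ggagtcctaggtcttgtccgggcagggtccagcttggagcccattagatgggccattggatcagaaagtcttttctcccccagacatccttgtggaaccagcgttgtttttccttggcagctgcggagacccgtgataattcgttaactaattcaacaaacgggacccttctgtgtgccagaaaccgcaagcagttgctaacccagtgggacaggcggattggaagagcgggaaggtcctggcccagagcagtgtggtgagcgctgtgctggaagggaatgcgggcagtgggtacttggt
BNIP3 chr10:131981874-131982173 (minus strand): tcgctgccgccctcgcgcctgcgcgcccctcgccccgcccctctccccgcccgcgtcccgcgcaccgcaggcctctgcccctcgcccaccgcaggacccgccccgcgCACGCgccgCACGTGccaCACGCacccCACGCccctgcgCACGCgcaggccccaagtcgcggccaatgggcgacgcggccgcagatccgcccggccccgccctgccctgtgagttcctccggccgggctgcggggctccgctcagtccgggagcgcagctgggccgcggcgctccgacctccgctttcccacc
ANKRD37 chr4:185396591-185396890 (plus strand): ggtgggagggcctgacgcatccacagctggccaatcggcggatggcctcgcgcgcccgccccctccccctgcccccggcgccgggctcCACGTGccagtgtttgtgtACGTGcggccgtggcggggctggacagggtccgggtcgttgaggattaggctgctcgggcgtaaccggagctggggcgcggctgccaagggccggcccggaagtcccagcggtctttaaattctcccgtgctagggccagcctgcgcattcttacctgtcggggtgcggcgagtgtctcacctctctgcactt
The ALDOC window held 3 ACGTG and 2 GCGTG matches, and the BNIP3 window held 2 ACGTG and 4 GCGTG matches. The ANKRD37 window held 3 ACGTG and 0 GCGTG matches. The P4HA2 window held 0 of both. Matches were thus present in a gene with lower signal and in both genes with higher signal. Of the 35 genes, 31 had a promoter in the RefSeq table, with 59 promoters in all, and BNIP3L, NDRG1, SLC2A3 and VEGFA had none there. ACGTG was in 39% of the 59 and in 21.4% of all 35116 promoters of the table, and GCGTG in 39% and 36.5%. Either motif was in 22 of 36 promoters of glycolytic enzymes (61.1%), 7 of 9 of HIF targets (77.8%) and 48.4% of all. Promoters of a gene can overlap, so they are not independent. These are matches of letters and not measured binding.

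On each array, 11311 to 13110 probes were above background (detection p under 0.05), and the median signal was 164.4 to 190.6. The probe for PAGE5, which encodes CT16, was not above background on any array, so the silencing could not be checked here. Its signal was 161.8, 170.6 and 161 in CT16-siRNA-treated cells and 194.8, 151.7 and 153.3 in control cells. Apart from these arrays, the paper reports that its CT16 siRNAs silenced CT16 mRNA in A2058 cells. Of 8 melanocyte markers with a probe, 7 were above background (all but MLANA), and of 9 markers of other cell types PECAM1 and DCN were. Some of these were dim: TYRP1 had signals of 179 to 214.1, S100B 183.7 to 210.4, PECAM1 181.4 to 249.4 and DCN 183.7 to 242.9. The array of CT16 siRNA replicate 1 was unlike the rest. Along the leading principal component, which held 71.8% of the variance, the scores were -37.5, -9.03 and 16.5 for replicates 1 to 3 of CT16 siRNA, against 4.49, 21.1 and 4.49 for those of control siRNA (the sign is arbitrary). Where leaving out this array moved a difference by over 1.5 times, the value without it, from the 5 others normalized anew, is given with the result.

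After CT16 siRNA, 18.8% of the 16 glycolytic enzymes and 62.5% of the 8 HIF targets had a higher mean, against 50.1% of all probes. None of the 28 genes passed either of 2 tests at a limit of 0.05. Differences are log2 signal in CT16-siRNA-treated cells minus control cells after quantile normalization, with limma's standard error (SE) and 3 arrays per group. limma called 0% of the 12082 probes tested at an adjusted p under 0.05, and the adjusted p of the 28 genes ranged from 0.303 (P4HA2) to 0.994 (SLC2A1). By the rank product, the study's own test, 0.828% of these probes were called higher and 1% lower at a false discovery rate (FDR) under 0.05, and 0 of the 28 genes were. For its table of genes regulated by CT16 the paper used an FDR under 0.1 in both of its experiments. Here 1 of the 28 genes was under 0.1 (P4HA2, lower, 0.0618), and the share of all probes under 0.1 was not counted. At an unadjusted p under 0.05, 2 genes were higher (7.14%) against 4.39% of all probes, and 4 were lower (14.3%) against 5.17%. The groups did not overlap for 3 higher genes (10.7%) against 7.39% of all probes, and for 7 lower genes (25%) against 8.95%. One of the 3 higher genes, HK2, passed the limit on dim signal through its CT16 siRNA arrays, so its place in that count carries no weight. The median difference was -0.11, and that of all probes 0.00.

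**Figure D1:**
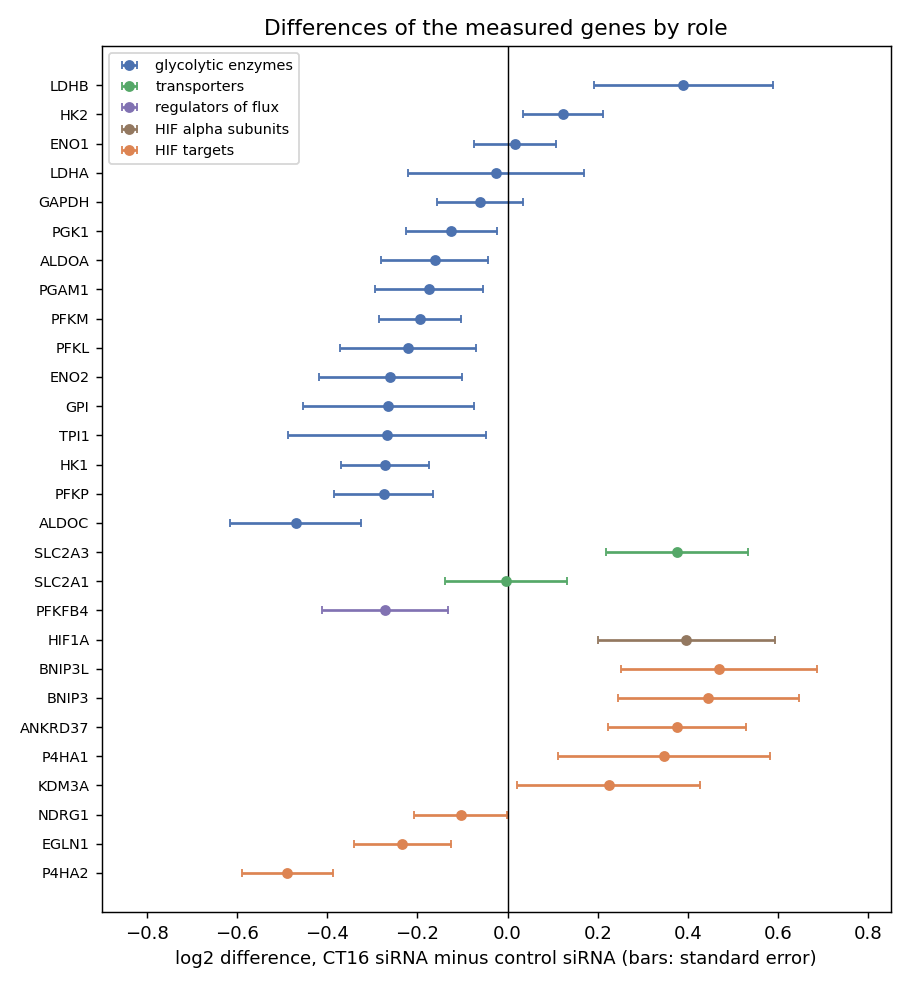
Log2 difference of each of the 28 genes, CT16 siRNA minus control siRNA (x axis, log2 units; bars are the standard error), grouped by role and coloured by group. Of the glycolytic enzymes 13 of 16 lie left of 0, and of the HIF targets 5 of 8 lie right of 0.

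Of the 16 glycolytic enzymes, 13 had a lower mean in CT16-siRNA-treated cells and 3 a higher one, with a median difference of -0.18 and a range of -0.47 to 0.39. Of the 8 HIF targets, 5 had a higher mean and 3 a lower one, with a median of 0.29 and a range of -0.49 to 0.47. Of all 12082 probes, 6050 were higher and 6032 lower. The medians of the 2 sets differed by -0.47 and their means by -0.27, with the HIF targets at a mean of 0.13. Of the HIF targets, 2 were lower without overlap (P4HA2 and EGLN1, 25%) and 1 was higher (ANKRD37, 12.5%). Of the glycolytic enzymes, 5 were lower without overlap (31.2%) and 1 was higher (the dim HK2, 6.25%). For all probes these shares were 8.95% lower and 7.39% higher. Without CT16 siRNA replicate 1 the medians were -0.08 and 0.07 and differed by -0.16, with the same counts of higher and lower genes. Centring the arrays on their medians in place of quantile normalization moved the median of all probes to 0.10. Relative to that, the glycolytic enzymes were at -0.16 and the HIF targets at 0.36. Counted from 0 on that scale, 11 glycolytic enzymes were lower and 5 higher, and 6 HIF targets were higher and 2 lower.

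The mean level of each set on each array was taken as the mean over its genes of the log2 signal minus the control mean of the probe. For the glycolytic enzymes it was -0.24, -0.14 and -0.03 for replicates 1 to 3 of CT16 siRNA, against -0.03, 0.03 and 0.01 for those of control siRNA. For the HIF targets it was 0.31, 0.10 and -0.02 for replicates 1 to 3 of CT16 siRNA, against 0.03, -0.05 and 0.02 for those of control siRNA. CT16 siRNA replicate 1 was thus the extreme array in both sets, and replicate 3 was near the control arrays in both. The SD of the set means was 0.11 and 0.17 in CT16-siRNA-treated cells, and 0.03 and 0.04 in control cells (n = 3 each). With 3 arrays against 3, an exact permutation test cannot give a p under 0.1.

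**Figure D2:**
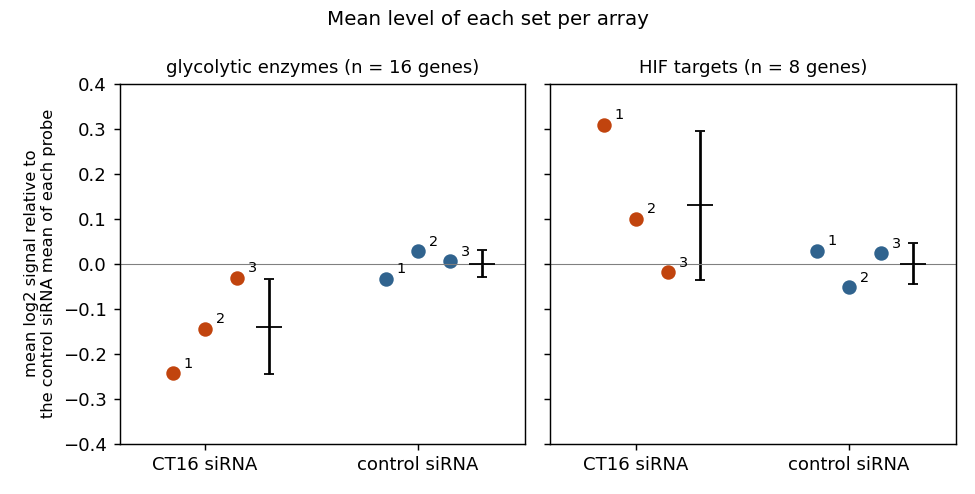
Mean log2 signal of the 16 glycolytic enzymes (left) and the 8 HIF targets (right) on each array relative to the control siRNA mean of each probe (y axis, log2 units). Points are arrays with their replicate number, and bars are the mean and SD of 3 arrays; CT16 siRNA replicate 1 is lowest on the left and highest on the right.

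The same array led in most single genes. Among the CT16 siRNA arrays, replicate 1 lay farthest from the control mean in 23 of the 28 genes (82.1%), against 60.5% of all probes. CT16 siRNA replicate 3 was within the range of the control arrays in 15 of the 28 genes (53.6%), against 44.3% of all probes. Replicate 3 was itself the farthest in 3 genes, HK2, LDHA and ANKRD37.

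**Figure D3:**
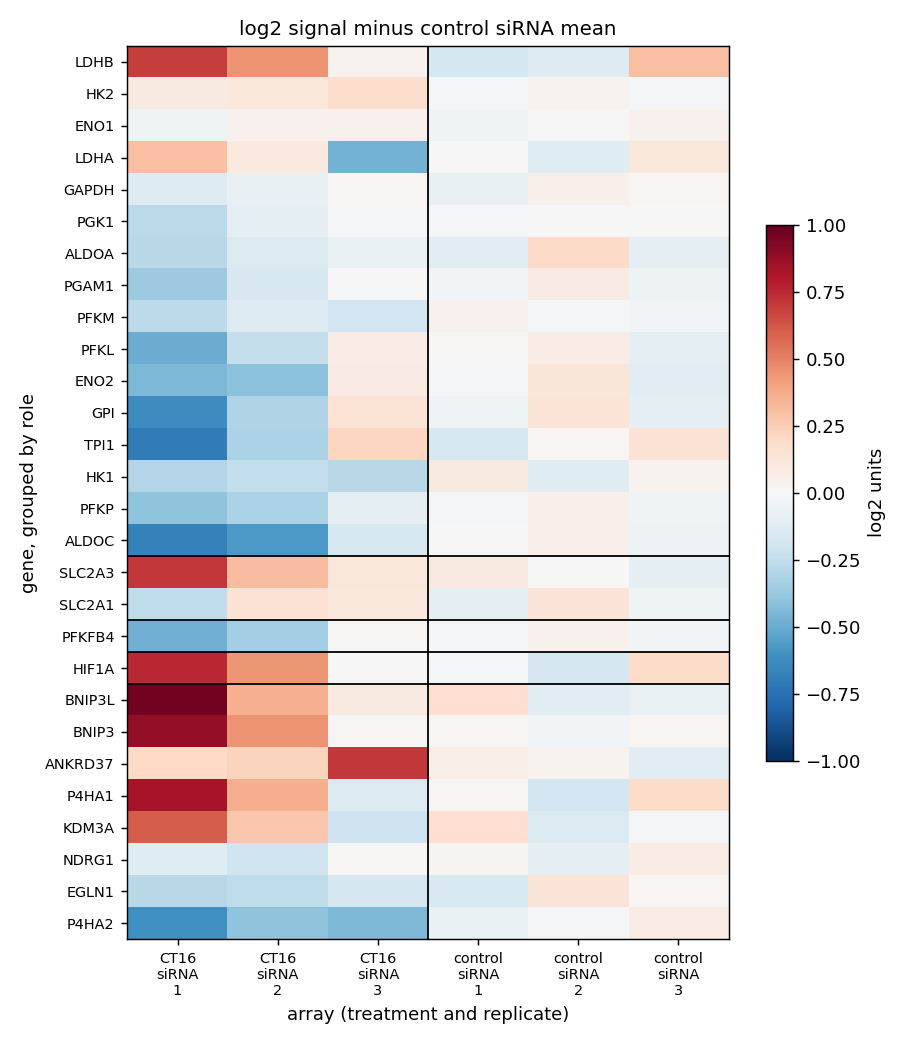
Log2 signal of each gene on each array minus its control siRNA mean (colour, log2 units), with the CT16 siRNA arrays left of the control siRNA arrays and lines between roles. CT16 siRNA replicate 1 has the deepest colours, and replicate 3 is mostly pale, with 15 of 28 genes within the control range.

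The hexokinases trap glucose in the cell by phosphorylation. HK1, the broadly expressed form, had log2 signals of 12.21, 12.27 and 12.23 in CT16-siRNA-treated cells and 12.60, 12.39 and 12.54 in control cells. The groups did not overlap, and the difference was -0.27 (SE 0.10, adjusted p = 0.484). It was -0.26 without CT16 siRNA replicate 1. HK2, the form that many tumours induce, was dim, with 7.67, 7.68 and 7.75 in CT16-siRNA-treated cells and 7.55, 7.61 and 7.57 in control cells. It was above background on all 3 CT16 siRNA arrays but on only 1 control array. It was thus the gene nearest the limit for inclusion, and its difference of 0.12 (SE 0.09, adjusted p = 0.622) rests on dim signal (0.44 under neqc background correction). GPI, which turns glucose 6-phosphate into fructose 6-phosphate, had a difference of -0.26 (SE 0.19), -0.08 without CT16 siRNA replicate 1 and -0.46 without replicate 3.

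Phosphofructokinase commits sugar to glycolysis, and its muscle (PFKM), platelet (PFKP) and liver (PFKL) forms were measured. PFKP had log2 signals of 10.87, 10.95 and 11.17 in CT16-siRNA-treated cells and 11.26, 11.32 and 11.23 in control cells. Each CT16 siRNA array was below each control array, with a difference of -0.27 (SE 0.11, adjusted p = 0.514). PFKM had 9.45, 9.58 and 9.53 in CT16-siRNA-treated cells and 9.76, 9.70 and 9.69 in control cells. Here too there was no overlap, at -0.19 (SE 0.09, adjusted p = 0.533). PFKL overlapped, at -0.22 (SE 0.15), and was at -0.086 without CT16 siRNA replicate 1 and -0.37 without replicate 3. Under median centring PFKM was at -0.0053, where all probes had a median of 0.10. The flux regulator PFKFB4 had 10.09, 10.22 and 10.58 in CT16-siRNA-treated cells and 10.55, 10.61 and 10.54 in control cells. CT16 siRNA replicates 1 and 2 were below the control arrays and replicate 3 was among them (-0.27, SE 0.14). The difference was -0.17 without replicate 1 and -0.41 without replicate 3.

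Aldolase cleaves the phosphorylated hexose, and ALDOC, the aldolase typical of brain, had the most negative difference of the enzymes. Its log2 signals were 10.83, 10.93 and 11.35 in CT16-siRNA-treated cells and 11.51, 11.56 and 11.45 in control cells. All CT16 siRNA arrays were below all control arrays, with replicate 3 nearest to them. The difference was -0.47 (SE 0.15), which is 0.722-fold, with limma's adjusted p = 0.477 and a rank product FDR of 0.108. Without CT16 siRNA replicate 3 it was -0.61 and passed limma (adjusted p = 0.0465) and the rank product (FDR 0.00938). Over all alternatives limma's adjusted p was 0.0465 to 0.936 and the FDR 0.00938 to 0.746. The difference was -0.37 without CT16 siRNA replicate 1. ALDOA, the ubiquitous form, had 3 probes above background that disagreed in sign. The brightest gave -0.16 (SE 0.12) and the others 0.35 (SE 0.26) and -0.08 (SE 0.09), so no direction is given, and the counts above use the brightest.

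The later steps run on triose phosphates. TPI1, which interconverts them, had 11.75, 12.13 and 12.66 in CT16-siRNA-treated cells and 12.29, 12.46 and 12.59 in control cells. The CT16 siRNA arrays spanned more than the control arrays on both sides, and the difference was -0.27 (SE 0.22). Leaving out CT16 siRNA replicate 1 gave -0.05, and leaving out replicate 3 gave -0.50. PGK1, an ATP-forming step, had 9.87, 10.05 and 10.11 in CT16-siRNA-treated cells and 10.12, 10.14 and 10.14 in control cells. There was no overlap, though replicate 3 was just below the lowest control array (-0.12, SE 0.10). PGAM1 (phosphoglycerate mutase) was at -0.17 (SE 0.12) and ENO2, the neuronal enolase, at -0.26 (SE 0.16), both with overlap. Without CT16 siRNA replicate 1, PGK1 was at -0.055, PGAM1 at -0.079 and ENO2 at -0.17. GAPDH and ENO1 were among the brightest probes, where quantile normalization gives arrays with the same rank the same value. Their differences were -0.06 (SE 0.10) and 0.02 (SE 0.09), or -0.029 and 0.040 without CT16 siRNA replicate 1. The signs of GAPDH, PGK1, ENO1 and LDHA turned under median centring, where all probes had a median of 0.10 and each of these genes was below it.

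Lactate dehydrogenase is a tetramer of A and B chains, of which LDHA is the hypoxia-induced one. LDHB had the highest difference of the enzymes, with 12.93, 12.70 and 12.28 in CT16-siRNA-treated cells and 12.07, 12.12 and 12.55 in control cells. CT16 siRNA replicates 1 and 2 exceeded all control arrays and replicate 3 did not (0.39, SE 0.20, adjusted p = 0.545). The difference was 0.24 without CT16 siRNA replicate 1. LDHA had 13.45, 13.25 and 12.68 in CT16-siRNA-treated cells and 13.16, 13.03 and 13.26 in control cells. Replicate 1 was highest and replicate 3 lowest of all 6 arrays, and the difference of -0.03 (SE 0.20) was 0.20 without replicate 3 and -0.19 without replicate 1.

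Glucose enters through the transporters. SLC2A3 (GLUT3), a high-affinity transporter, had 9.72, 9.33 and 9.13 in CT16-siRNA-treated cells and 9.10, 9.02 and 8.93 in control cells. The groups did not overlap, with a difference of 0.38 (SE 0.16, adjusted p = 0.515), or 0.21 without CT16 siRNA replicate 1. SLC2A1 (GLUT1), the basal transporter and a known HIF target, had 8.33, 8.73 and 8.69 in CT16-siRNA-treated cells and 8.50, 8.72 and 8.55 in control cells. The difference was -0.0040 (SE 0.14), and its sign turned under median centring and with CT16 siRNA replicate 1 (0.13) or control siRNA replicate 2 (0.061) left out. SLC16A3, which exports lactate, had no probe named here.

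HIF1A, the oxygen-regulated subunit, had 9.69, 9.38 and 8.94 in CT16-siRNA-treated cells and 8.93, 8.77 and 9.12 in control cells. CT16 siRNA replicates 1 and 2 were above all control arrays and replicate 3 among them (0.40, SE 0.20, adjusted p = 0.536). The difference was 0.22 without CT16 siRNA replicate 1 and 0.59 without replicate 3. A second probe for HIF1A gave 0.47 (SE 0.33). Its sister subunit EPAS1 was not above background on any array. The same held for VEGFA, the angiogenic growth factor, for PFKFB3, a relative of PFKFB4, and for the oxygen sensor EGLN3. PDK1, which restrains pyruvate oxidation, was the gene just outside the limit, above background on 1 array only. The raw signal of PDK1 was 180.7, 175.6 and 191.4 in CT16-siRNA-treated cells and 210.7, 170.3 and 154.4 in control cells. CA9 had no probe named here. In bulk RNA, fewer cells with a transcript and less of it per cell cannot be told apart.

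Among HIF targets, the alternative catalytic subunits of collagen prolyl 4-hydroxylase had differences of opposite sign. P4HA2 had 9.09, 9.30 and 9.25 in CT16-siRNA-treated cells and 9.63, 9.69 and 9.78 in control cells. All CT16 siRNA arrays were well below all control arrays. The difference was -0.49 (SE 0.10), which is 0.713-fold, with limma's adjusted p = 0.303 and a rank product FDR of 0.0618, the lowest values among the 28 genes. It was -0.43 without CT16 siRNA replicate 1, where the rank product FDR was 0.0388. The FDR was 0.0387 to 0.604 over the alternatives, highest under median centring. P4HA1 had 9.99, 9.53 and 9.02 in CT16-siRNA-treated cells and 9.18, 8.98 and 9.35 in control cells. It overlapped, at 0.35 (SE 0.24), 0.11 without CT16 siRNA replicate 1 and 0.59 without replicate 3. Whether the 2 subunits differed from each other was not tested.

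BNIP3 and BNIP3L encode related receptors for mitophagy. BNIP3 had 10.89, 10.46 and 10.03 in CT16-siRNA-treated cells and 10.03, 9.98 and 10.04 in control cells. The control arrays were close together, CT16 siRNA replicate 3 lay among them, and the difference was 0.45 (SE 0.20, adjusted p = 0.525). It was 0.65 without CT16 siRNA replicate 3, where limma's adjusted p was 0.0494 (0.0494 to 0.936 over all alternatives), and 0.24 without replicate 1. BNIP3L had 9.66, 9.05 and 8.78 in CT16-siRNA-treated cells and 8.86, 8.59 and 8.63 in control cells. Here too CT16 siRNA replicates 1 and 2 were above all control arrays and replicate 3 was among them, at 0.47 (SE 0.22, adjusted p = 0.531) and 0.23 without CT16 siRNA replicate 1.

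ANKRD37 encodes an ankyrin repeat protein. Its log2 signals were 9.16, 9.17 and 9.66 in CT16-siRNA-treated cells and 9.02, 8.99 and 8.85 in control cells. All CT16 siRNA arrays were above all control arrays, with replicate 3 highest (0.38, SE 0.15, adjusted p = 0.515, rank product FDR 0.145). Leaving out CT16 siRNA replicate 3 gave 0.21, and leaving out replicate 1 gave 0.47. KDM3A, a histone H3 lysine demethylase, had 9.30, 8.96 and 8.49 in CT16-siRNA-treated cells and 8.86, 8.55 and 8.68 in control cells. The ranges overlapped, at 0.22 (SE 0.20), 0.03 without CT16 siRNA replicate 1 and 0.43 without replicate 3. EGLN1 (PHD2), the main oxygen sensor, had 8.07, 8.09 and 8.18 in CT16-siRNA-treated cells and 8.19, 8.48 and 8.37 in control cells. There was no overlap, although replicate 3 was just below the lowest control array (-0.23, SE 0.11, adjusted p = 0.527). The difference was -0.062 under median centring and -0.47 under neqc background correction. NDRG1, a stress-response gene, was at -0.10 (SE 0.10) with overlap. Its sign turned under median centring (0.058), where all probes had a median of 0.10.

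**Figure D4:**
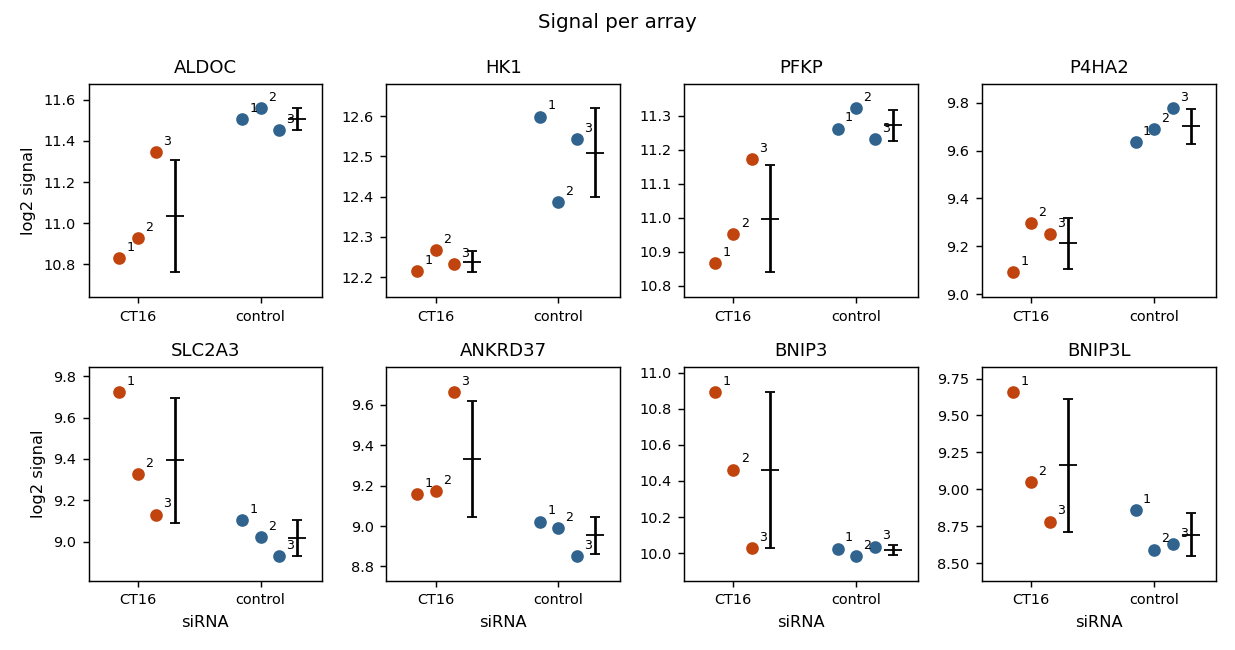
Log2 signal (y axis) of 8 genes on each array, CT16 siRNA left of control siRNA; points carry the replicate number, and bars are the mean and SD of 3 arrays. ALDOC, HK1, PFKP and P4HA2 were lower without overlap, SLC2A3 and ANKRD37 were higher without overlap, and BNIP3 and BNIP3L overlapped in CT16 siRNA replicate 3.

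Further genes of the pathways were read from lists written by role. In other glycolysis genes, 10 of 19 were above background, with 4 higher, 6 lower and a median of -0.01. At an unadjusted p under 0.05, BPGM, which makes 2,3-bisphosphoglycerate, was at 0.27 (SE 0.10) and PGM1, which links glycogen to glycolysis, at -0.40 (SE 0.13). BPGM was dim, with signals of 178.5 to 257.6 and 1 control array not above background, and its difference was 0.87 under neqc. In pyruvate and lactate handling, 12 of 19 were above background, with 7 higher and 5 lower (median 0.04). At an unadjusted p under 0.05, PDK3, a pyruvate dehydrogenase kinase, was at -0.40 (SE 0.11) and MPC1, of the mitochondrial pyruvate carrier, at -0.21 (SE 0.09). PDK4, another such kinase, was not under that limit but had the highest difference of the list, 0.62 (SE 0.36). Its groups overlapped, and it was at 0.20 without CT16 siRNA replicate 1. PDK3 was at -0.70 under neqc. In the pentose phosphate pathway, 8 of 10 were above background, with 3 higher and 5 lower (median -0.14), among them TALDO1 (transaldolase) at -0.39 (SE 0.12). limma called 0 genes of these lists, with adjusted p of at least 0.447, and the rank product called 0 as well.

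The machinery of oxygen sensing had 16 of 19 genes above background, with 12 higher and 4 lower (median 0.09). VHL had 8.99, 9.09 and 8.86 in CT16-siRNA-treated cells and 8.55, 8.67 and 8.64 in control cells. All CT16 siRNA arrays were above all control arrays (0.36, SE 0.10, limma's adjusted p = 0.447, rank product FDR 0.193). The rank product called 1 gene of the list higher, against 0.828% of all probes: HSP90AA1, a chaperone of HIF1A (FDR 0.000833). It had 13.46, 12.48 and 11.81 in CT16-siRNA-treated cells and 11.71, 11.05 and 12.08 in control cells. Replicate 3 was below one control array, and the difference of 0.97 (SE 0.42) was 0.54 without CT16 siRNA replicate 1, where the FDR was 0.360.

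Of 43 other hypoxia-induced genes, 28 were above background, with 18 higher and 10 lower and a median of 0.04. By the rank product 3 were called higher and 1 lower, against 0.828% and 1% of all 12082 probes, and limma called 0. DDIT4 (REDD1), an inhibitor of mTORC1, had 11.60, 11.64 and 11.61 in CT16-siRNA-treated cells and 10.94, 11.06 and 11.03 in control cells. The groups were well apart and each was tight (0.60, SE 0.09, limma's adjusted p = 0.222, rank product FDR 0.0159). The difference was 0.62 without CT16 siRNA replicate 1, where the FDR was 0.113. The transferrin receptor TFRC was at 0.92 (SE 0.36, FDR 0.00188) and the collagen lysyl hydroxylase PLOD2 at 0.86 (SE 0.39, FDR 0.00906). Both overlapped between groups, and without CT16 siRNA replicate 1 they were at 0.59 and 0.43 with FDRs of 0.217 and 0.679. STC1 (stanniocalcin) was at 0.49 (SE 0.16) and WSB1, of a ubiquitin ligase, at 0.40 (SE 0.14), neither called. WSB1 was at 1.04 under neqc.

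IGFBP3, which binds insulin-like growth factors, was the gene of that list called lower. It had 12.38, 12.08 and 11.75 in CT16-siRNA-treated cells and 12.97, 12.48 and 12.58 in control cells. The groups did not overlap, with a difference of -0.61 (SE 0.19, limma's adjusted p = 0.481, rank product FDR 0.00683). It was further from 0 without CT16 siRNA replicate 1, at -0.77. Without any one of the control siRNA arrays its FDR was 0.0645 to 0.301. The calls of HSP90AA1, DDIT4, TFRC, PLOD2 and IGFBP3 by the rank product were all lost under neqc background correction, with FDRs of 0.110 to 0.571. TFRC, PLOD2, HSP90AA1 and PDK4 were named after their values were seen.

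**Figure D5:**
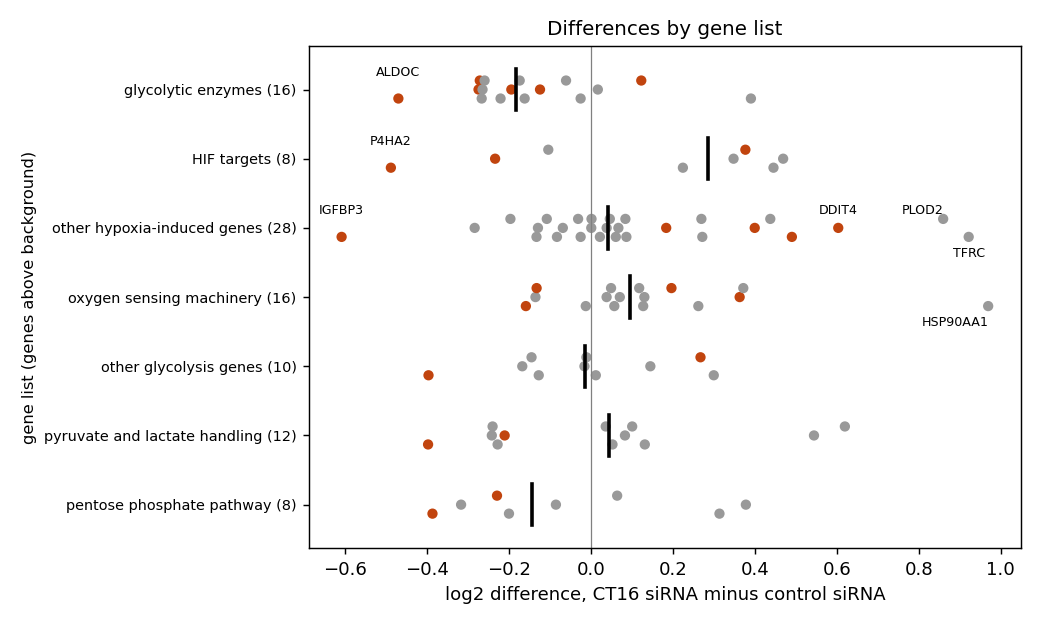
Log2 difference, CT16 siRNA minus control siRNA (x axis), of the genes above background in each list (rows, with the number of genes); each point is a gene, red where the groups did not overlap, and black lines are medians. The glycolytic enzymes centre at -0.18 and the HIF targets at 0.29, while the other hypoxia-induced genes centre at 0.04.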

How the data were processed

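Total RNA of A2058 cells was measured on 6 Illumina arrays (Sentrix Human-6), and the labels gave 3 arrays to each group. For each probe the authors deposited a linear intensity before normalization, and with it a detection p-value against negative control beads. The authors also deposited intensity values that had been quantile-normalized. Non-normalized signals were taken to log2 and quantile-normalized here, and limma 3.58.1 in R 4.3.3 (lmFit, eBayes, Benjamini-Hochberg) was fitted on the 12082 probes with a detection p under 0.05 on at least 3 of 6 arrays. The rank product was written anew (9 ratios, 100 permutations within arrays) and run on all 47289 probes with values. Of these, 18468 had a gene symbol. Both tests were run on simulated data with independent noise for each probe. The real arrays differ from that, as their leading principal component held 71.8% of the variance, so the simulation does not show how the tests behave here. Quantile normalization forces equal distributions and ties the brightest probes by rank. The number of arrays limits the precision.

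All 35 genes were named, with 1 probe per gene by highest mean signal, and of each further list up to 3 higher and 3 lower genes with the smallest unadjusted p under 0.05. The genes and lists were chosen with earlier results of these data known, so lists have counts and medians and no test. Alternatives were neqc (offset 16), median centring, the authors' normalized values, all probes unfiltered, a stricter limit (8046 probes, detection p under 0.01 on 6 arrays), a robust fit with an intensity trend, the mean over all probes of a gene, the replicate number as a block, the rank product on probes above background only, and each array left out in turn. Blocking on the slide was not run, as the columns do not name it. Plots were made with matplotlib 3.10.9.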

Additional observations from a re-analysis of the deposited data

How the results depend on the processing

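limma called 0 probes under every alternative except with CT16 siRNA replicate 1 left out (10) or CT16 siRNA replicate 3 left out (313, of them 149 higher and 164 lower, ALDOC and BNIP3 included). With each array left out in turn it called 0 to 313. The rank product, with ranks over all 47289 probes, called 100 of the 12082 probes above background higher and 121 lower. With neqc it called 58 higher and 11 lower, and with median centring 41 lower. With ranks over the 12082 probes only, it called 23 higher and 46 lower. With each array left out in turn it called 3 to 163 higher and 17 to 492 lower. With the replicate number as a block, limma called 0 probes and the rank product 52 higher and 109 lower. The deviations of the 2 arrays with the same number from their group means correlated at r = 0.42, 0.02 and -0.41 for replicates 1 to 3. These values cannot decide whether cultures with the same number were paired, and the labels give only the number.

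The median difference of the glycolytic enzymes was -0.058 and that of the HIF targets 0.462 under median centring. With each array left out in turn they were -0.24 to -0.083 and 0.072 to 0.33, and the difference between them was -0.56 to -0.16. Under median centring the differences of GAPDH (0.071), PGK1 (0.049), ENO1 (-0.018), LDHA (0.013), SLC2A1 (0.20) and NDRG1 (0.058) turned sign. All probes had a median of 0.10 there, which only SLC2A1 of these genes exceeded. With each array left out in turn, SLC2A1 was at -0.078 to 0.13 (above 0 without CT16 siRNA replicate 1 or control siRNA replicate 2), LDHA at -0.19 to 0.20 (above 0 without replicate 3 of either group) and ENO1 at -0.0049 to 0.040 (below 0 without control siRNA replicate 1). The cause was not tested. Without CT16 siRNA replicate 3, the rank product FDR was 0.0496 for TPI1 and 0.0387 for P4HA2, and limma also called DDIT4, STC1 and TFRC. The rank product calls of HSP90AA1, DDIT4, PLOD2, TFRC and IGFBP3 were all lost under neqc (FDR 0.153, 0.356, 0.111, 0.110 and 0.571). Those of HSP90AA1, DDIT4, PLOD2 and TFRC were lost without CT16 siRNA replicate 1 or 2, that of DDIT4 also without replicate 3 (0.116), that of PLOD2 without control siRNA replicate 2 (0.103), and that of IGFBP3 without control siRNA replicate 1, 2 or 3 (0.301, 0.0645 and 0.123). On probes above background only, DDIT4 (0.119) and PLOD2 (0.0560) were not called. Signal near background, as for HK2, limits what the arrays can show.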
